A study of Caenorhabditis elegans with 27 samples.

Results

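The major sperm protein (msp) genes of Caenorhabditis elegans were followed across 27 RNA libraries of whole worms that aged on bacteria with or without black rice extract (BRE). The members were all gene entries of the deposited count table whose symbol was msp followed by a number, which gave 31 of 46934 entries. All worms were of the wild-type strain N2, were kept at 20 °C and started the diet as synchronized L4 larvae, the last larval stage. In the BRE groups (12 libraries) the worms fed on Escherichia coli OP50 with the extract for 6, 11, 15 or 17 days, and in the OP50 groups (15 libraries) they fed on OP50 without it for 1, 6, 11, 15 or 17 days. Each of the 9 groups had 3 libraries, called biological replicates in the labels, and each library pooled the RNA of about 1000 whole worms. The labels list several extract concentrations and do not say which one the sequenced worms received.

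Major sperm protein is the main cytoskeletal protein of the crawling nematode sperm, where its filaments take the place that actin has in other crawling cells. It is also released from sperm as a signal that starts oocyte maturation and the contraction of the gonadal sheath. A hermaphrodite makes its sperm as a late larva and then switches to oocytes, which it fertilizes with the stored sperm. The genes are many, near-identical, lack introns and are transcribed while sperm form.

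The family had 13 members on chromosome II and 18 on chromosome IV, each annotated in WBcel235 as a protein-coding gene with 1 exon. With gaps of over 300 kb as borders they fell into 4 clusters. On chromosome II, 10 members lay between 4785898 and 5200180 and 3 between 5797065 and 5810330. On chromosome IV, 9 lay between 5055631 and 5316906 and another 9 between 9689015 and 10143740. The annotated gene was 384 bases long in 28 members, 360 bases in msp-32 and 234 bases in msp-58 and msp-74. Introns of other genes held 4 members. They were msp-31 (in aagr-2, a gene of the alpha-glucosidase family, on the same strand), msp-45 (in srb-13, same strand), msp-33 (in gst-9, opposite strand) and msp-38 (in dhs-12, opposite strand). None of these overlaps touched an exon of the other gene. The sources used here do not say how reads that match several members were counted, or whether strand was used. The split of counts between near-identical members is therefore uncertain, and a level of a single member less certain than the family's sum.

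The deepest library held 164.34 M counts and the shallowest 101.61 M (median 137.09 M), and no pair of libraries was identical. Levels are given as CPM, counts scaled to an equal normalized library total, and 3 values of a group stand in the order of replicates 1, 2 and 3. A single library resolves about 3 counts, which came to between 0.0183 and 0.0291 CPM. A level of 0 allows values up to that limit. Intervals and limits cover counting error only. Of 300 msp counts between 1 and 20, 62.7% were even, against 58.0% to 72.4% of such counts over all tested genes in a library. Why even counts were more common was not tested, and if reads were counted in pairs the counting intervals are too narrow. Of the 31 members, 28 passed the filter on low counts and were tested among 19290 genes, while msp-32, msp-63 and msp-74 did not. These held 3, 43 and 21 counts in all 27 libraries together.

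msp transcripts were scarce in every group, and replicate libraries of 1 group differed by up to 140-fold in their level. The family held 38626 counts in all, at most 0.0101% of a library, and 71.7% of them came from 4 libraries. The family sum was 25.3, 6.04 and 3.81 CPM in the OP50 day 1 libraries. At day 6 it was 0.429, 0.463 and 2.91 CPM with BRE, against 0.864, 0.723 and 0.387 CPM on OP50. Both day 6 groups lay below the lowest day 1 library. At day 11 the sum was 45.2, 0.891 and 2.60 CPM with BRE, against 28.4, 1.00 and 1.41 CPM on OP50. At day 15 the BRE libraries had 6.79, 6.94 and 0.856 CPM, against 9.66, 0.608 and 85.4 CPM on OP50. At day 17 they had 0.590, 0.520 and 7.84 CPM, against 65.4, 1.94 and 3.23 CPM on OP50. In each pair of groups of the same day the BRE and OP50 values overlapped, and from day 11 on 1 or 2 libraries of a group stood far above the rest.

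**Figure D1:**
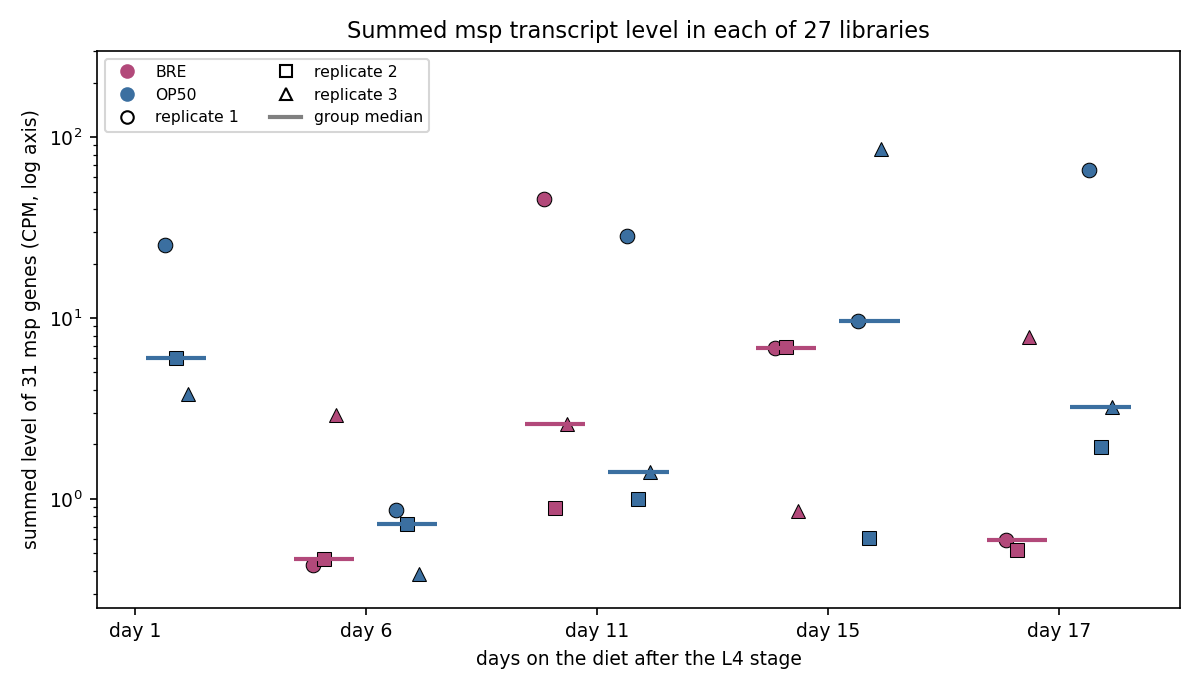
Summed level of the 31 msp genes in each library (CPM, log axis) by day, with BRE left of OP50 and symbols for replicates. The horizontal bars are group medians. OP50 day 15 replicate 3 is highest at 85.4 CPM and OP50 day 6 replicate 3 lowest at 0.387 CPM.

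Within a group the highest library exceeded the lowest 50.7-fold in BRE day 11, 28.4-fold in OP50 day 11, 33.7-fold in OP50 day 17 and 140-fold in OP50 day 15. The spread was narrowest in OP50 day 6, at 2.23-fold. Group means with their SD were 1.27 ± 1.42 CPM in BRE and 0.658 ± 0.245 CPM in OP50 at day 6, and 16.2 ± 25.1 CPM in BRE and 10.3 ± 15.7 CPM in OP50 at day 11 (n = 3 each). They were 4.86 ± 3.47 CPM in BRE and 31.9 ± 46.6 CPM in OP50 at day 15, and 2.98 ± 4.21 CPM in BRE and 23.5 ± 36.3 CPM in OP50 at day 17 (n = 3 each). OP50 day 1 averaged 11.7 ± 11.8 CPM (n = 3). In whole worms, fewer sperm-forming cells or sperm and less msp RNA in each of them cannot be told apart. The fitted biological coefficient of variation had a median of 1.61 over the 28 tested members, against 0.252 over all tested genes.

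The number of members with at least 1 count was 31 of 31 in OP50 day 11 replicate 1, OP50 day 15 replicate 3 and OP50 day 17 replicate 1, and 30 in BRE day 11 replicate 1. In the OP50 day 6 libraries 12, 6 and 4 members had a count. The highest of the 27 libraries was OP50 day 15 replicate 3 for 22 members (5.82% of all tested genes), OP50 day 17 replicate 1 for 8 (7.72%) and OP50 day 11 replicate 1 (0.938%) for msp-32, which had 1 count there. BRE day 11 replicate 1 was the highest for 0 members and for 0.508% of all tested genes. The 4 libraries with the highest family sums were OP50 day 15 replicate 3, OP50 day 17 replicate 1, BRE day 11 replicate 1 and OP50 day 11 replicate 1. The same 4 libraries were the 4 highest for 18 of the 28 tested members and for 1.19% of all tested genes. Because the members' own sum picked these libraries, the count of members describes the family and is no separate test. Their totals were 116.54, 113.7, 113.63 and 112.07 M counts, and only OP50 day 15 replicate 1, at 101.61 M, was shallower. Whether depth has a part in the msp level was not tested.

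**Figure D2:**
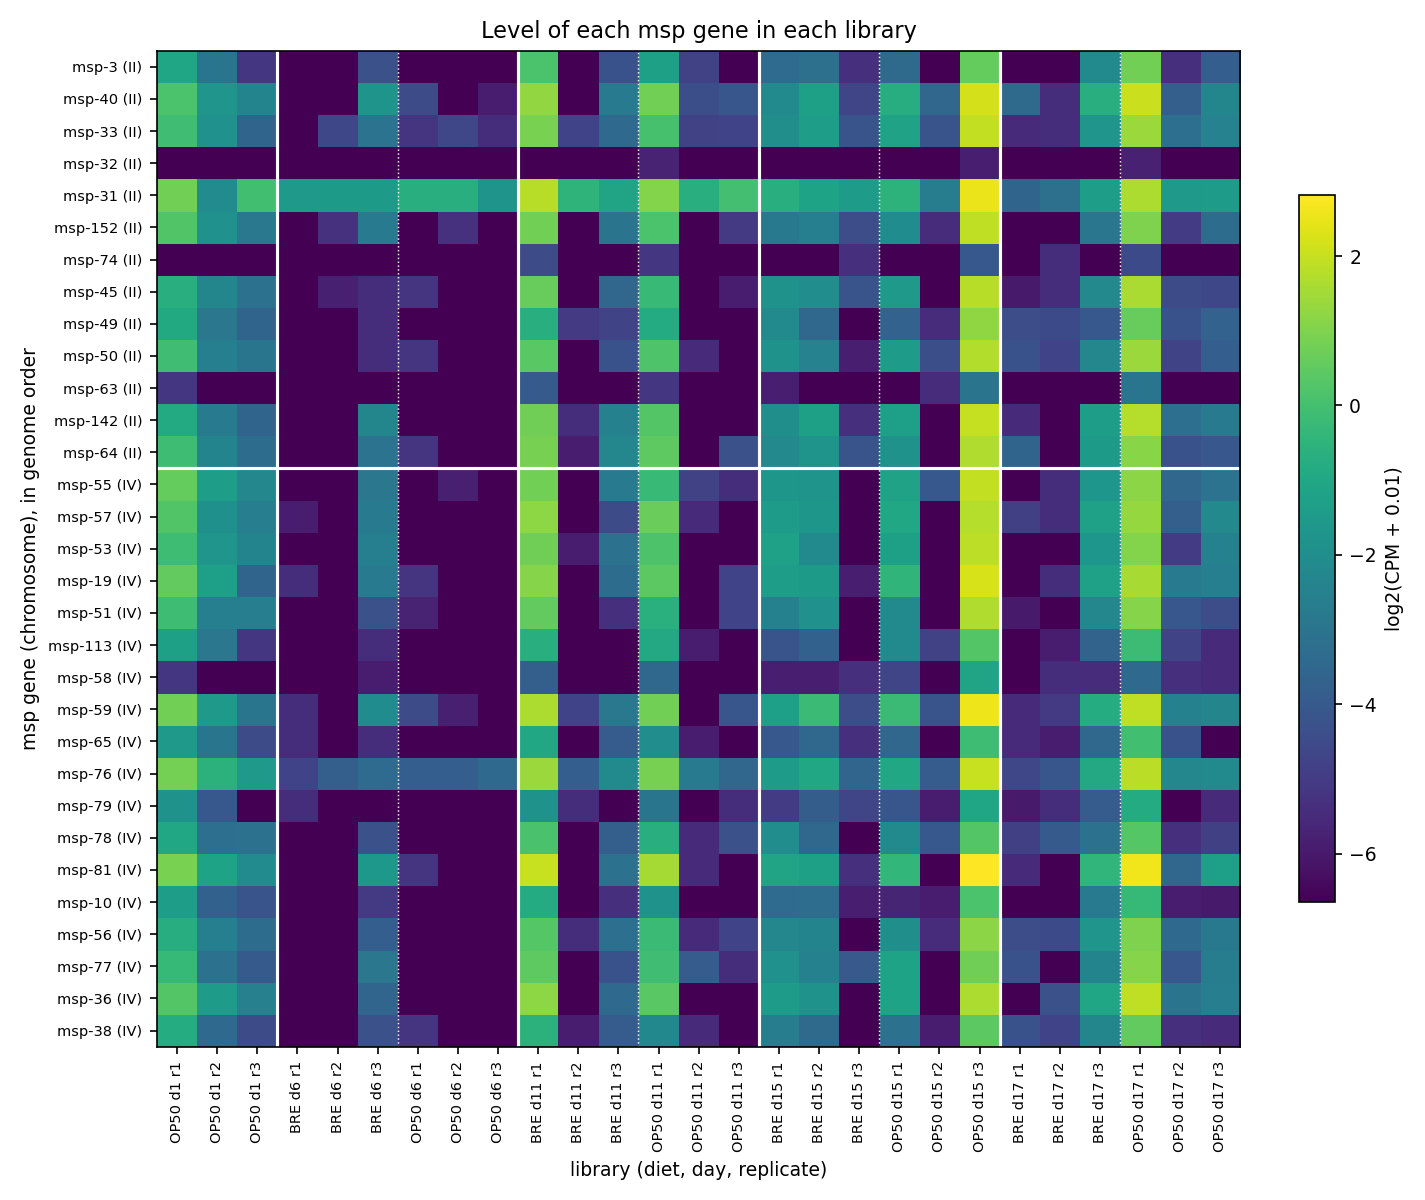
Level of each msp gene (rows, in genome order) in each library (columns, by day, BRE left of OP50), as log2(CPM + 0.01). Columns light or dark for nearly all members at once stand out, such as OP50 day 15 replicate 3 and OP50 day 17 replicate 1, and msp-31 and msp-76 have a count in all 27 libraries.

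The 6 members with the highest mean CPM over the 27 libraries were msp-31, msp-81, msp-59, msp-76, msp-40 and msp-19, all of 384 bases and so of equal length. Their mean levels per length were 2.51, 2.49, 1.96, 1.75, 1.67 and 1.5 CPM per kb. At the low end, msp-58 averaged 0.129 CPM per kb and msp-32 0.00255 CPM per kb. These genes encode forms of the same cytoskeletal protein, and their levels are therefore described together.

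msp-81 (WBGene00003467, chromosome IV, 9836034 to 9836417) had 1.89, 0.443 and 0.227 CPM in the OP50 day 1 libraries. At day 6, msp-81 had 0, 0 and 0.316 CPM with BRE, against 0.0175, 0 and 0 CPM on OP50. Apart from BRE replicate 3, no day 6 library held more than 2 of its counts. At day 11, msp-81 had 3.99, 0 and 0.106 CPM with BRE, against 2.86, 0.0126 and 0 CPM on OP50. At day 15, msp-81 had 0.449, 0.408 and 0.0148 CPM with BRE, against 0.756, 0 and 7.01 CPM on OP50. At day 17, msp-81 had 0.0122, 0 and 0.736 CPM with BRE, against 6.09, 0.0775 and 0.395 CPM on OP50. The groups of a day overlapped each time, and replicates of 1 group ranged from no count to the family's top level.

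msp-59 (WBGene00003452, chromosome IV, 5312728 to 5313111) had 1.74, 0.326 and 0.118 CPM in the OP50 day 1 libraries. At day 6, msp-59 had 0.0136, 0 and 0.234 CPM with BRE, against 0.0349, 0.0077 and 0 CPM on OP50. The OP50 day 6 values all lay below those of day 1. At day 11, msp-59 had 3.12, 0.027 and 0.127 CPM with BRE, against 1.71, 0 and 0.0483 CPM on OP50. At day 15, msp-59 had 0.397, 0.86 and 0.0369 CPM with BRE, against 0.853, 0.0448 and 5.96 CPM on OP50. At day 17, msp-59 had 0.0122, 0.0203 and 0.571 CPM with BRE, against 3.70, 0.169 and 0.185 CPM on OP50. The libraries that were high for msp-81 were high for msp-59 too.

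Like msp-31 alone among the other members, msp-76 (WBGene00003463, chromosome IV, 9689015 to 9689398) had a count in all 27 libraries. It had 1.77, 0.661 and 0.327 CPM in the OP50 day 1 libraries. At day 6, msp-76 had 0.0272, 0.0628 and 0.0893 CPM with BRE, against 0.0611, 0.0616 and 0.083 CPM on OP50. These day 6 levels rest on 4 to 13 counts a library and lay between 0.0272 and 0.0893 CPM over both groups. At day 11, msp-76 had 2.59, 0.0608 and 0.219 CPM with BRE, against 1.81, 0.144 and 0.0759 CPM on OP50. At day 15, msp-76 had 0.361, 0.481 and 0.0738 CPM with BRE, against 0.504, 0.0576 and 4.06 CPM on OP50. At day 17, msp-76 had 0.0304, 0.0473 and 0.514 CPM with BRE, against 3.56, 0.197 and 0.222 CPM on OP50. From day 11 on the same libraries stood out as for msp-81.

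msp-40 (WBGene00003435, chromosome II, 4825414 to 4825797) had 1.09, 0.293 and 0.182 CPM in the OP50 day 1 libraries. At day 6, msp-40 had 0, 0 and 0.288 CPM with BRE, against 0.0349, 0 and 0.00692 CPM on OP50. Again BRE replicate 3 was the one day 6 library with more than a few counts. At day 11, msp-40 had 2.41, 0 and 0.134 CPM with BRE, against 1.71, 0.0377 and 0.0483 CPM on OP50. At day 15, msp-40 had 0.221, 0.401 and 0.0295 CPM with BRE, against 0.591, 0.0768 and 4.62 CPM on OP50. At day 17, msp-40 had 0.0852, 0.0135 and 0.597 CPM with BRE, against 4.16, 0.0634 and 0.191 CPM on OP50. Its BRE and OP50 ranges overlapped on each day.

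msp-19 (WBGene00003426, chromosome IV, 5260589 to 5260972) had 1.46, 0.393 and 0.0726 CPM in the OP50 day 1 libraries. At day 6, msp-19 had 0.0136, 0 and 0.144 CPM with BRE, against 0.0175, 0 and 0 CPM on OP50. The 3 OP50 libraries held 2 counts between them. At day 11, msp-19 had 2.12, 0 and 0.0918 CPM with BRE, against 1.35, 0 and 0.0276 CPM on OP50. At day 15, msp-19 had 0.375, 0.35 and 0.00738 CPM with BRE, against 0.717, 0 and 4.77 CPM on OP50. At day 17, msp-19 had 0, 0.0135 and 0.413 CPM with BRE, against 2.94, 0.134 and 0.16 CPM on OP50. As for the members above, the highest value of a group was many times its lowest.

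msp-31 (WBGene00003429, chromosome II, 4916179 to 4916562) was the one member with a sizeable level in all 27 libraries. It had 1.71, 0.226 and 0.962 CPM in the OP50 day 1 libraries. At day 6, msp-31 had 0.341, 0.345 and 0.343 CPM with BRE, against 0.602, 0.600 and 0.284 CPM on OP50. Its counts made up most of the family's in the OP50 day 6 libraries, where the sum without it was 0.262, 0.123 and 0.104 CPM. The same held in BRE day 6 replicates 1 and 2, with 0.0886 and 0.118 CPM left without it. It also held in OP50 day 11 replicates 2 and 3 (0.402 and 0.435 CPM left) and BRE day 11 replicate 2 (0.196 CPM left). The low family sums of these libraries therefore rest mostly on msp-31. At day 11, msp-31 had 3.48, 0.695 and 0.452 CPM with BRE, against 2.07, 0.603 and 0.98 CPM on OP50. At day 15, msp-31 had 0.618, 0.437 and 0.354 CPM with BRE, against 0.688, 0.147 and 5.71 CPM on OP50. At day 17, msp-31 had 0.073, 0.101 and 0.375 CPM with BRE, against 3.09, 0.338 and 0.364 CPM on OP50. The gene that holds it in an intron, aagr-2, had 177, 128 and 134 CPM with BRE and 133, 165 and 145 CPM on OP50 at day 6. At day 17 aagr-2 had 46.1, 49.7 and 46.4 CPM with BRE and 32.2, 61.3 and 33.1 CPM on OP50. The part of unspliced aagr-2 RNA in the msp-31 counts was not tested.

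The make-up of the family was compared in the 6 libraries with at least 1000 msp counts, which held between 1235 and 11787 each. msp-81 took the largest share in all 6, between 7.47% and 10.1% of the msp counts. msp-59 ranked between 2 and 4 in these libraries with 5.67% to 7.29%, and msp-76 between 2 and 6 with 4.76% to 7.01%. Members of chromosome II together took between 35.2% and 41.9%, and those of chromosome IV between 58.1% and 64.8%. Each of the 3 larger clusters held between 26% and 34.4% of the counts, and the cluster of 3 genes between 5.77% and 9.15%. The shares of some members differed more. msp-58, with the fewest counts of the tested members, varied 7.43-fold, between 0.0708% and 0.526%. msp-49 varied 4.24-fold, between 0.648% and 2.75%, and msp-38 varied 3.44-fold, between 0.706% and 2.43%. Among the least variable, msp-33 varied 1.24-fold and msp-19 1.28-fold. The shares of single libraries have no replicate test and no counting intervals here. The lowest shares rest on few counts, and msp-58 held 106 counts in all 27 libraries together. The part of counting error in these differences was not tested.

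**Figure D3:**
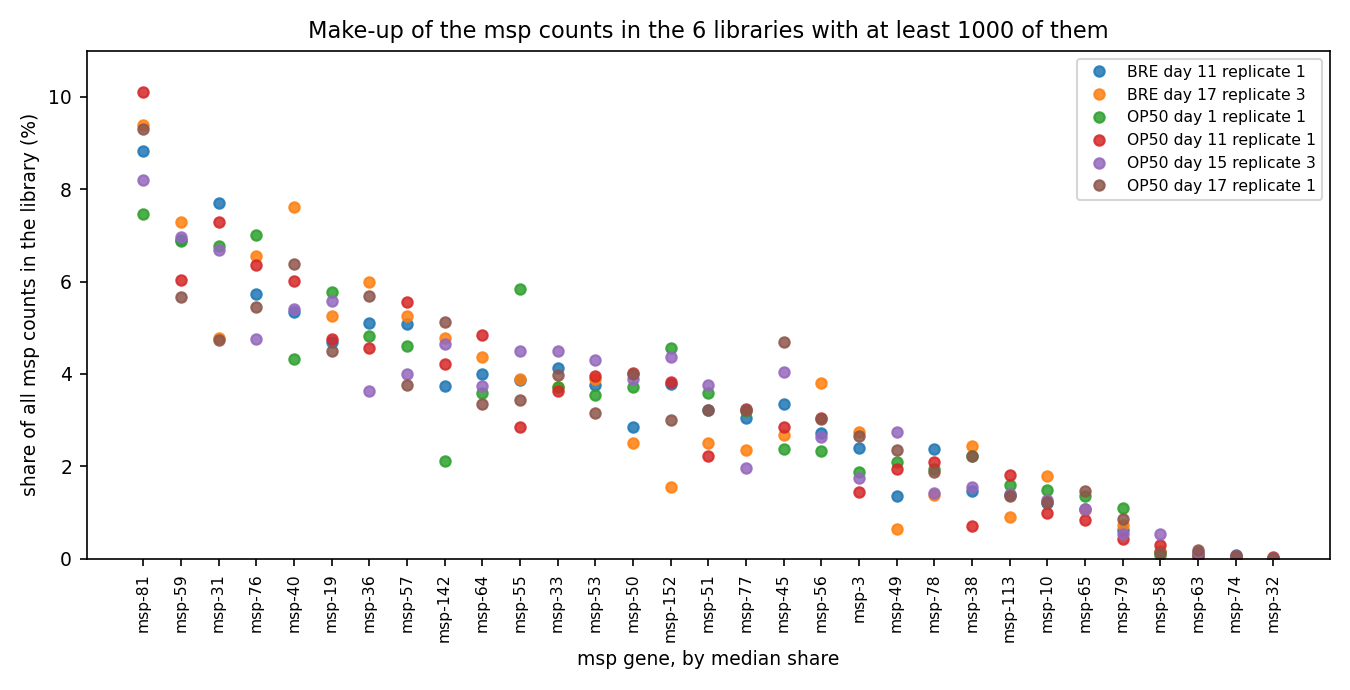
Share of each msp gene in all msp counts of a library (%), for the 6 libraries with at least 1000 msp counts, 1 point per library. msp-81 is first in all 6, between 7.47% and 10.1%, and msp-32, msp-63, msp-74 and msp-58 lie near 0.

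OP50 day 6 was compared with OP50 day 1 to see what became of msp RNA after the first day of the diet. The family sum was 0.864, 0.723 and 0.387 CPM at day 6, against 25.3, 6.04 and 3.81 CPM at day 1, and without msp-31 it was 0.262, 0.123 and 0.104 CPM at day 6, against 23.6, 5.82 and 2.85 CPM at day 1. For 25 of the 31 members all day 6 libraries lay below all day 1 libraries, while 25.1% of tested genes showed this. In 14 tested members no count was found in any OP50 day 6 library. By edgeR's quasi-likelihood test with Benjamini-Hochberg adjustment over all tested genes, 1 of 28 members (msp-55) was called lower at an adjusted p under 0.05 and 0 higher, while 19% of all tested genes were called lower and 33% either way. Their median log2 difference was -7.01, or -5.22 over 27 members when a group without counts was set to 3 counts, against -0.10 over all tested genes. The p-values rest on a spread between replicates that was estimated over all 9 groups together, not over these libraries alone.

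msp-55 (WBGene00003448, chromosome IV, 5055631 to 5056014) had 0, 0.0077 and 0 CPM at day 6, against 1.48, 0.377 and 0.200 CPM at day 1. The groups did not overlap, and the 1 count at day 6 against 232 at day 1 gave a ratio of 0.00378 with an exact 95% counting interval of 9.53e-05 to 0.0213. In edgeR its log2 difference was -7.62 with an SE of 2.89 and an adjusted p of 0.0462. msp-81 had 0.0175, 0 and 0 CPM at day 6, against 1.89, 0.443 and 0.227 CPM at day 1. Its 2 counts at day 6 against 289 gave a ratio of 0.00607 (0.000731 to 0.0221), with a log2 difference of -7.12, an SE of 3.30 and an adjusted edgeR p of 0.101. msp-36 had 0 counts at day 6 against 196 at day 1, so it was at least 74.5-fold lower, and its adjusted edgeR p was 0.081. msp-31 stood apart, with a log2 difference of -0.97, an SE of 1.02 and overlapping groups.

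The number of members called lower at day 6 depended on the tool and on the other groups in the fit. It was 1 of 28 in edgeR over all libraries, with 22 at an unadjusted p under 0.05, and 23 in DESeq2, which called 19.8% of all genes lower and 35.2% either way. In an alternative chosen after seeing the data, the fit without the 4 libraries highest in msp, none of which belongs to these groups, called 24 of 26 tested members lower, against 19.6% of all genes. Leaving out OP50 day 1 replicate 1 or 2, or any OP50 day 6 library, ended the edgeR call of msp-55, with the lowest adjusted p of a member then between 0.0596 and 0.139.

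At days 11, 15 and 17 the OP50 groups again held msp RNA at levels that overlapped day 1. These comparisons share the day 1 libraries. At day 11 the family sum was 28.4, 1.00 and 1.41 CPM, against 25.3, 6.04 and 3.81 CPM at day 1. edgeR called 0 of 28 members, with 0 at an unadjusted p under 0.05, and 35.8% of all tested genes. DESeq2 called 0 members and 35.2% of all genes. The median log2 difference of the members was -0.30, and 20 of 28 were negative. At day 15 the sum was 9.66, 0.608 and 85.4 CPM, and all 28 tested members had a positive log2 difference with a median of 1.44. edgeR called 1 member, msp-58, where 26.1% of all tested genes were called higher and 47.2% either way. At day 17 the sum was 65.4, 1.94 and 3.23 CPM, all 28 log2 differences were positive with a median of 0.97, and edgeR called 0 members, with 0 at an unadjusted p under 0.05, and 53.9% of all tested genes. DESeq2 called 0 members and 49% of all genes there. All members' groups overlapped at these 3 ages, and single libraries turned the medians. The day 15 median was -1.23 without OP50 day 15 replicate 3, and the day 17 median was -2.09 without OP50 day 17 replicate 1. The day 11 median was 1.03 without OP50 day 1 replicate 1, -4.96 without OP50 day 11 replicate 1, and 0.27 and 0.26 without OP50 day 11 replicate 2 and replicate 3.

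msp-58 (WBGene00003451, chromosome IV, 5308593 to 5308826), a member with a short annotated gene of 234 bases, had 0.0291, 0 and 0.449 CPM at day 15, against 0.0179, 0 and 0 CPM at day 1. Of its 65 counts at day 15, 62 came from replicate 3, and the groups overlapped. The ratio of 65 to 2 counts was 27.9 (7.42 to 235), and in edgeR the log2 difference was 4.57 with an SE of 1.80 and an adjusted p of 0.0419. The call was lost without OP50 day 15 replicate 3, without any OP50 day 1 library, and in DESeq2, which called 0 members and 43.3% of all genes. In the same comparison msp-81 had a log2 difference of 1.60 with an SE of 2.01 and an adjusted p of 0.533.

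OP50 day 17 was also compared with OP50 day 6, which uses no day 1 library. Here 25 of 28 tested members were called higher and 0 lower in edgeR, against 32.5% of all tested genes called higher, 23.5% lower and 56% either way. The median log2 difference was 7.77, or 6.42 with groups without counts set to 3 counts, against 0.17 over all tested genes. For 24 of the 31 members all day 17 libraries lay above all day 6 libraries, which held for 33.8% of tested genes. The 3 members not called were msp-10, msp-58 and msp-31, and msp-31 had a log2 difference of 1.35 with an SE of 1.02 and an adjusted p of 0.264. DESeq2 also called 25 higher, against 32.1% of all genes (51.9% either way).

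The 4 members with the lowest adjusted p had no count at day 6. msp-56 (chromosome IV, 9841540 to 9841923) had 1.98, 0.0846 and 0.13 CPM at day 17, against 0, 0 and 0 CPM at day 6, which made it at least 82.5-fold higher with an adjusted edgeR p of 0.0161. msp-49 (chromosome II, 5194366 to 5194749) had 1.54, 0.0423 and 0.0679 CPM at day 17, against 0, 0 and 0 CPM at day 6, at least 61.3-fold higher, with an adjusted edgeR p of 0.0209. All 3 day 17 libraries lay above day 6 for both genes, and replicate 1 held most of the counts, 236 of 269 for msp-56 and 183 of 200 for msp-49. msp-78 (chromosome IV, 9770046 to 9770429) had 1.23, 0.0141 and 0.0247 CPM at day 17, against 0, 0 and 0 CPM at day 6, at least 46.6-fold higher. msp-77 (chromosome IV, 9894631 to 9895014) had 2.10, 0.0493 and 0.148 CPM at day 17, against 0, 0 and 0 CPM at day 6, at least 86.2-fold higher. Their adjusted edgeR p-values were 0.0217 for msp-78 and 0.0219 for msp-77.

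Of the most abundant members, msp-81 had a ratio of 800 to 2 counts of 368 (102 to 3040), a log2 difference of 8.48 with an SE of 3.29 and an adjusted edgeR p of 0.033. msp-76, with 488 counts at day 17 against 27 at day 6, had a ratio of 16.6 (11.3 to 25.5), a log2 difference of 4.24 with an SE of 1.64 and an adjusted p of 0.0328. msp-59, msp-40 and msp-19 had log2 differences of 6.58, 6.71 and 7.45 with SEs of 2.56, 2.48 and 2.92. The libraries of day 17 that were left without replicate 1 still lay above day 6 for these 5 genes, for example at 0.0775 and 0.395 CPM for msp-81, against at most 0.0175 CPM at day 6.

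The calls rested on a few libraries. Without OP50 day 17 replicate 1 edgeR called 0 of 28 members and 50.2% of all tested genes, the lowest adjusted p was 0.11 and the median log2 difference was 4.26. In that fit the log2 difference was 1.65 for msp-76, 5.36 for msp-81, 4.53 for msp-78 and 6.94 for msp-56. Without any one of the 3 OP50 day 6 libraries edgeR called 1 of 29 members, msp-56, and between 47.1% and 48.2% of all tested genes, although the medians stayed between 7.34 and 9.04. Without OP50 day 17 replicate 2 or 3 it called 26 of 29 members, beside 53.1% and 46.9% of all tested genes. With the replicate number as a block 16 members and 59.1% of all tested genes were called. In the fit without the 4 libraries highest in msp it was 2 of 26 members, msp-49 and msp-56, beside 32.4% of all genes called higher.

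In the BRE groups day 17 was set against day 6 in the same way. The family sum was 0.590, 0.520 and 7.84 CPM at day 17, against 0.429, 0.463 and 2.91 CPM at day 6, and the groups overlapped. edgeR called 0 of 28 members, with 0 at an unadjusted p under 0.05, and 54.8% of all tested genes, and DESeq2 called 0 members and 50.6% of all genes. For 2 members, msp-49 and msp-50, all day 17 libraries lay above all day 6 libraries, against 39.8% of tested genes. The median log2 difference was 1.73. msp-81 had 0.0122, 0 and 0.736 CPM at day 17, against 0, 0 and 0.316 CPM at day 6, a log2 difference of 1.22 with an SE of 2.23. Whether the change with age differed between the diets was tested as the difference of both changes, a test added after seeing the data. edgeR called 0 members in it, 0 had an unadjusted p under 0.05, the lowest was 0.0596 for msp-77, and 0% of all tested genes were called.

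**Figure D4:**
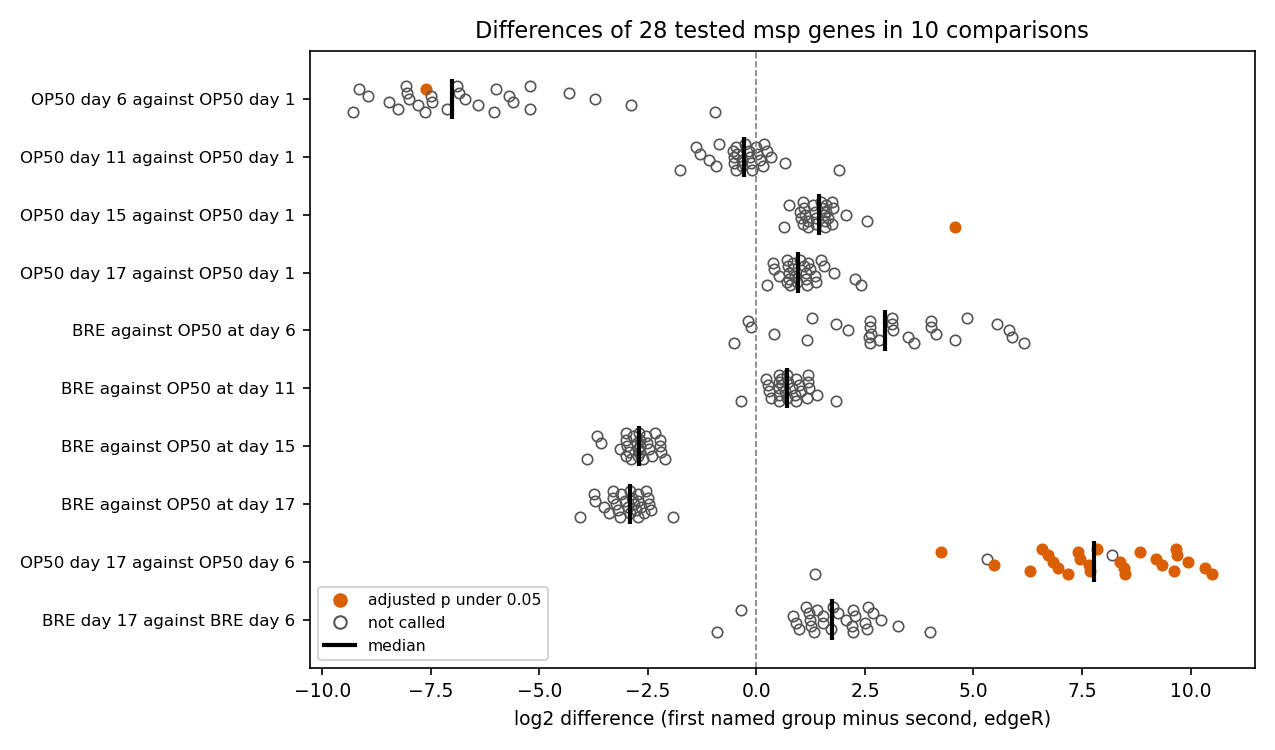
Log2 difference of each of the 28 tested msp genes (points) in 10 comparisons, the group named first minus the group named second, with the median as a bar and called genes filled. Calls fill the comparison of OP50 day 17 with OP50 day 6 (25 of 28), and no BRE comparison holds any.

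BRE was compared with OP50 on each of 4 days to see whether the extract changed msp RNA. edgeR called 0 members at each of the 4 days, and for each of the 31 members the BRE and OP50 libraries of a day overlapped. At day 6 the median log2 difference was 2.96, or 2.10 over 23 members with groups without counts set to 3 counts, and 25 of 28 members were positive. edgeR called 0, with 0 at an unadjusted p under 0.05, against 0.0156% of all tested genes. BRE day 6 replicate 3 stood apart, with 2.91 CPM of msp RNA and 27 members with a count, against 7 and 5 members in the other BRE libraries and 12, 6 and 4 in the OP50 libraries. msp-142 (chromosome II, 5797927 to 5798310) had 0, 0 and 0.192 CPM with BRE, against 0, 0 and 0 CPM on OP50, so that all of its 28 counts lay in this library. Over the groups msp-142 was at least 8.65-fold higher with BRE, and its edgeR p was 0.207 (adjusted 1). DESeq2 called it together with msp-53 and msp-36, 3 members in all, against 0.0268% of all genes called higher and 0.0436% either way, and the 23 counts of msp-53 and the 11 of msp-36 also lay in BRE day 6 replicate 3 alone. Without that library the median log2 difference in edgeR was 0.

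At day 11 both groups had 1 library rich in msp RNA, replicate 1 in each, and the median log2 difference was 0.70 with 27 of 28 members positive. edgeR called 0 members, with 0 at an unadjusted p under 0.05, and 0.0104% of all tested genes, and DESeq2 called 0 members and 0.0235% of all genes. msp-38 (chromosome IV, 10143357 to 10143740), the member with the lowest p, had 0.666, 0.00675 and 0.0565 CPM with BRE, against 0.201, 0.0126 and 0 CPM on OP50. Its log2 difference was 1.83 with an SE of 1.79 and an adjusted p of 1. The median was -2.83 when BRE replicate 1 was left out and 5.12 when OP50 replicate 1 was left out.

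At days 15 and 17 all 28 tested members had a negative log2 difference with BRE, with medians of -2.71 and -2.91, and the groups of every member overlapped. Of the 28, 2 had an unadjusted p under 0.05 at day 15 and 1 at day 17. edgeR and DESeq2 called 0 members at either age. edgeR called 0% of all tested genes at both, and DESeq2 0.279% of all genes at day 15 and 0.0101% at day 17. The medians were 0.02 at day 15 without OP50 day 15 replicate 3 and 0.18 at day 17 without OP50 day 17 replicate 1. At day 15 msp-58 had 0.00736, 0.00729 and 0.0148 CPM with BRE, against 0.0291, 0 and 0.449 CPM on OP50, with a log2 difference of -3.91, an SE of 1.63 and an adjusted p of 1. At day 17 msp-31 had 0.073, 0.101 and 0.375 CPM with BRE, against 3.09, 0.338 and 0.364 CPM on OP50. Its log2 difference was -2.77 with an SE of 1.09, an unadjusted p of 0.0178 and an adjusted p of 0.576. msp-81 had a log2 difference of -3.15 with an SE of 2.15 at day 15 and of -3.12 with an SE of 2.15 at day 17.

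Averaged over the 4 days, edgeR and DESeq2 called 0 members, 1 had an unadjusted p under 0.05 in edgeR, and 0.0467% of all tested genes were called in edgeR and 0.119% in DESeq2. The member was msp-31, with a log2 difference of -1.29, an SE of 0.514 and an adjusted p of 0.967. A joint edgeR test of whether the BRE difference varied between the 4 days called 0 members and 0% of all tested genes, with 0 members at an unadjusted p under 0.05 and the lowest at 0.113 for msp-152.

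Other sperm genes were read in the same libraries from lists made for this work, to see what moved with msp RNA. The sperm structure and chromatin list (33 genes found, 30 tested) holds small structural proteins, PDZ proteins and sperm histone-like proteins, and the list of sperm kinases and phosphatases holds gsp-3 and gsp-4 (protein phosphatases of sperm), spe-6 (a casein kinase I type kinase), spe-8 (a tyrosine kinase) and spe-4 (a presenilin-like protein of the sperm organelles). In all 9 groups the library with the highest msp sum was also the highest for both lists. The structure list summed to between 25.8 and 52.6 CPM in the 4 libraries highest in msp, against 7.18 to 19.1 CPM in the other 23. The kinase and phosphatase list summed to between 11.1 and 17.1 CPM in those 4, against 5.34 to 9.5 CPM in the other 23. The sum of the spermatogenesis and sperm function list did not stand out, with 360 to 486 CPM in those 4, against 366 to 564 CPM in the other 23. This sum is far larger than those of the structure list and the kinase and phosphatase list. A rise of the size seen in these lists could therefore not show in it. The same 4 libraries were highest for 12 of the 30 tested structure genes, among them spch-1, spch-2 and spch-3 (sperm chromatin proteins), and for gsp-3 and spe-4 of the kinase and phosphatase list. That held for 1 of the 33 tested genes of the spermatogenesis and sperm function list and for 1.19% of all tested genes. These ranges describe the libraries and were not tested.

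**Figure D5:**
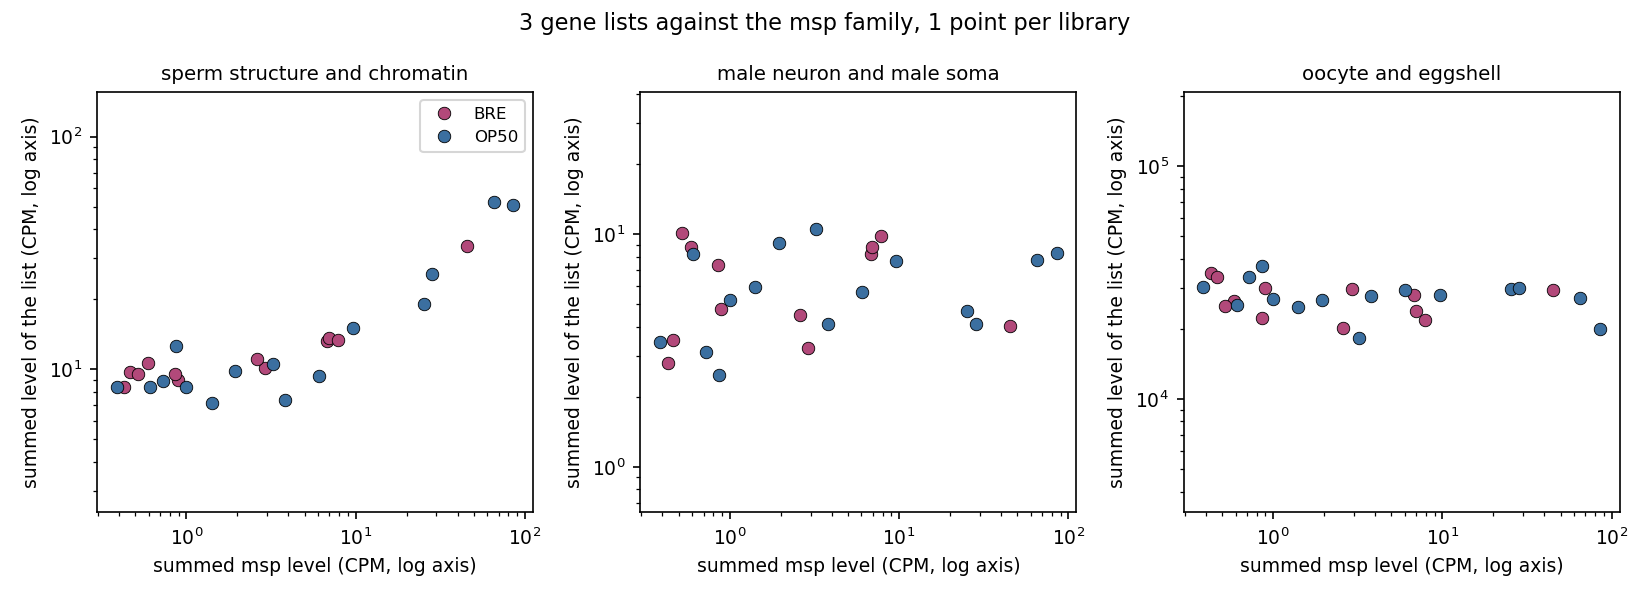
Summed level of 3 gene lists (CPM, log axis) against the summed level of the msp genes (CPM, log axis), 1 point per library, BRE and OP50 coloured. The sperm structure list reaches 25.8 to 52.6 CPM in the 4 libraries highest in msp, while the male and the oocyte lists span like ranges in these and the other libraries.

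gsp-3 had 3.01 CPM in OP50 day 15 replicate 3 and 3.78 CPM in OP50 day 17 replicate 1, against 0.0138 to 0.0698 CPM in the OP50 day 6 libraries. The number of msp counts per count of another sperm gene was set out for the 6 libraries with at least 1000 msp counts. Per gsp-3 count it was 44.8 (34.9 to 58.5) in OP50 day 1 replicate 1, 20.1 (17.1 to 23.8) in OP50 day 11 replicate 1, 28.4 (25.8 to 31.4) in OP50 day 15 replicate 3 and 17.3 (15.7 to 19.1) in OP50 day 17 replicate 1. In the BRE groups it was 20.8 (18.3 to 23.8) in day 11 replicate 1 and 11.2 (9.23 to 13.8) in day 17 replicate 3. The ranges are exact 95% counting intervals, and no test between groups was made. How far the libraries differed depended on the gene taken. Per nspd-1 count the ratio lay between 10.4 in BRE day 17 replicate 3 and 18.8 in OP50 day 1 replicate 1, with the other 4 libraries between 14.2 and 16.3. Per gsp-4 count it lay between 7.06 in BRE day 17 replicate 3 and 35.7 in OP50 day 1 replicate 1. Per spch-1 count it lay between 27.8 in OP50 day 17 replicate 1 and 68.9 in OP50 day 1 replicate 1, and was 34.3 in BRE day 17 replicate 3.

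In OP50 day 17 against OP50 day 6, 24 of the 30 structure genes were called higher in edgeR and 0 lower. Of the 5 genes in the kinase and phosphatase list 4 were called higher and 0 lower. The 4 include spe-4, which is neither a kinase nor a phosphatase. Of all tested genes 32.5% were called higher. gsp-4 had a log2 difference of 4.75 with an SE of 1.39 and an adjusted p of 0.00645, gsp-3 one of 5.01 with an SE of 1.86 and an adjusted p of 0.0261, and spe-4 one of 2.84 with an SE of 0.800 and an adjusted p of 0.005. spe-6, at 6.16 CPM on average the most abundant of the list, had a log2 difference of 0.04 and was not called. ssp-35 was called with a log2 difference of 4.78 and an SE of 0.494, while ssp-37, the most abundant gene of the structure list, had one of 0.34 and was not called. Of the spermatogenesis and sperm function list, 16 of 33 tested genes were called higher and 4 lower, beside the same 32.5% and 23.5%. spe-39 (vesicle trafficking, also active outside sperm) fell by 0.83 and cpb-1 (a CPEB-family RNA-binding protein needed in spermatogenesis) fell by 0.71 on the log2 scale, and cpb-2 of the same family rose by 3.46. That list shares spe-4, spe-6 and spe-8 with the kinase list.

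In OP50 day 6 against OP50 day 1, 0 structure genes were called higher and 3 lower, while 0 kinase and phosphatase genes were called either way (median log2 differences of -4.01 and -1.94). Of all tested genes 19% were called lower there and 33% either way. In BRE day 17 against BRE day 6, 3 structure genes were called higher and 3 lower (median log2 difference 1.55), and 2 kinase and phosphatase genes higher and 0 lower (median 1.55), while 54.8% of all tested genes were called. The test of the difference between the changes on both diets called 0 of all 19290 tested genes. In none of the BRE against OP50 comparisons was a gene of any of the 10 lists called in edgeR, which called at most 0.0467% of all tested genes in any of them.

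Markers of other cells were set beside these values. The list of male neuron and male soma genes (15 genes) summed to between 4.01 and 8.32 CPM in the 4 libraries highest in msp, against 2.47 to 10.5 CPM in the other 23, and was the lowest of its group in 3 of those 4. In the fourth, OP50 day 15 replicate 3, which was the highest of all 27 in msp, the male list was the highest of its group, at 8.32 CPM beside 7.63 and 8.23 CPM in replicates 1 and 2. Over the 9 groups, the library highest in msp was also the highest for the male list in 2. None of its genes was undetected in all libraries. In OP50 day 17 against OP50 day 6, 11 of 15 were called higher and 0 lower, beside 32.5% and 23.5% of all tested genes. lov-1, a polycystin-like protein of male sensory neurons, had 2.0, 1.0 and 2.51 CPM at day 17, against 0, 0.0154 and 0.0415 CPM at day 6, a log2 difference of 6.45 with an SE of 0.595. Its 3 day 17 libraries all lay above day 6, whether or not they were rich in msp. xol-1, an early switch of male development and the most abundant gene of the list, had a log2 difference of 0.19 and was not called. Their part in the msp level was not tested.

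The embryo list summed to between 45.5 and 71.9 CPM in the 4 libraries, against 40.2 to 157 CPM in the other 23, and the larval cuticle and moult list to between 169 and 437 CPM, against 125 to 512 CPM. In OP50 day 17 against OP50 day 6, 5 of 13 tested embryo genes were called higher and 7 lower, where all tested genes gave 32.5% and 23.5%. Of 13 larval cuticle and moult genes 7 were called higher and 0 lower, among them noah-1 (a cuticle protein) with a log2 difference of 2.22 and an SE of 0.462 and mlt-8 (a moulting gene) with 2.45 and an SE of 0.271. Their part in the msp level was not tested.

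The receiving side of the sperm signal was read from 24 genes of the gonadal MSP response, which include the MSP receptor vab-1 (an Eph receptor) and the oocyte genes oma-1, oma-2 and lin-41. In OP50 day 17 against OP50 day 6, 4 were called higher and 11 lower, beside 32.5% and 23.5% of all tested genes. oma-2 fell by 1.19 and lin-41 by 1.19 on the log2 scale, with SEs of 0.177 and 0.227 and adjusted edgeR p-values of 9.2e-06 and 0.00016. vab-1 had a log2 difference of -0.12 with an SE of 0.137 and was not called. efn-2, an ephrin, rose by 2.17 with an SE of 0.24. Of 25 oocyte and eggshell genes, 1 was called higher and 22 lower. Of 13 other germline genes, among them pgl-1, glh-1, him-3 and syp-1, 0 were called higher and 9 lower, beside 23.5% of all tested genes called lower. The oocyte list summed to between 20000 and 30000 CPM in the 4 libraries highest in msp, against 18200 to 37200 CPM in the other 23.

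Of the 21 genes of germline sex determination, which decide whether germ cells become sperm or oocytes, 1 was called higher and 7 lower in OP50 day 17 against OP50 day 6, beside 32.5% of all tested genes called higher and 23.5% lower. Of the called genes with the lowest adjusted p, tra-2, which promotes the female fate, fell by 1.05 on the log2 scale (SE 0.165), and fem-1, needed for the male fate, fell by 0.57 (SE 0.0847). In 0 of the 9 groups was the library highest in msp also the highest for this list.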

How the data were processed

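The authors deposited 1 table of raw, unnormalized counts for 46934 WormBase gene entries in 27 libraries. The tools named per the submitters' processing notes are FastQC, Trimmomatic and HISAT2 2.0.5, with SAMtools 1.7 and featureCounts. The sources used here give neither their settings nor the genome build, the strand handling or the treatment of reads with several matches. Symbols came from a gene name table and coordinates from the WBcel235 annotation, by gene ID (44113 and 46924 entries matched).

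Counts were fitted in R 4.3.3 with edgeR 4.0.16, with TMM normalization, filterByExpr (minimum count 10) and 9 group means over 27 libraries. Calls are at 0.05 on the p adjusted by Benjamini-Hochberg over 19290 tested genes. Each SE is the size of the log2 difference divided by the root of its F statistic. The fit was also run on simulated counts with changes set in randomly picked genes, and the outcome is not given here. That run was not built around the msp genes and does not bear on their calls. Alternatives were DESeq2 1.42.0, other normalizations and filters, fits on the compared groups alone, a replicate block, and leaving out libraries. Counting intervals are exact binomial at 95%, and a group at 0 was set to 3 counts.

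Named were the 6 members with the highest mean CPM and up to 4 called members with the lowest adjusted p per comparison. Of other lists, up to 4 genes by mean CPM and up to 2 called genes by adjusted p were named. Genes named outside this rule, such as msp-36, msp-38, msp-142 and members with an extreme share, were chosen after their values were seen. Members and lists were chosen with earlier results of these data known. Same-numbered libraries were checked for pairing by the correlation of their deviations from group means. It was over 0.1 in all 3 pairs for BRE and OP50 at days 6 (0.22, 0.19 and 0.31) and 11 (0.50, 0.41 and 0.22), for OP50 days 17 and 6 (0.26, 0.18 and 0.14) and for BRE days 17 and 6 (0.15, 0.15 and 0.26), and not elsewhere.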

Additional observations from a re-analysis of the deposited data

How the results depend on the processing

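The number of msp genes called was recomputed under each alternative. For OP50 day 6 against day 1, with 1 in the fit over all libraries, it was 23 in DESeq2, 15 with the compared groups alone, 12 with the replicate block, 0 to 1 leaving out 1 library and 24 without the 4 libraries highest in msp, an alternative chosen after seeing the data that leaves these groups whole and changes the shared estimate of spread. Beside these, 35.2% of all genes were called in DESeq2, 39.6% with the block and 35.6% without the 4 libraries. Shares over all genes for fits on the compared groups alone are not given here. For OP50 day 15 against day 1 the 1 call became 0 in DESeq2, with a filter of at least 1 CPM in 3 libraries (msp-58 was then not tested), with the groups alone, with the block and without the 4 libraries, and 0 to 1 leaving out 1 library. Of all genes 43.3% were called there in DESeq2, 51.1% with the block and 41.4% without the 4 libraries. For OP50 day 17 against day 6 the 25 became 9 with the groups alone, 16 with the block, 0 to 26 leaving out 1 library and 2 without the 4 libraries. Of all genes 59.1% were called there with the block, 46.9% to 53.1% leaving out 1 library and 52% without the 4 libraries. BRE against OP50 at day 6 had 3 in DESeq2, beside 0.0436% of all genes, and 0 otherwise. Without the 4 libraries 10 were called lower at OP50 day 11 against day 1, beside 13.1% of all genes, where the highest day 11 library was removed. In the same fit 1 was called higher at BRE day 17 against day 6, beside 34.3% of all genes. Except for the removed library, the cause of these shifts was not tested. For OP50 day 17 against day 6 same-numbered libraries correlated at 0.26, 0.18 and 0.14, and the labels state no pairing. The block was fitted over all OP50 days at once, so its 16 calls are not a paired test of these days alone. For day 6 against day 1 the libraries share only a number, so the 12 calls under the block stand here alone. The block changed no call in the other BRE or age comparisons except the 1 at day 15.

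Of the refits of single named members, 281 kept direction and side of the threshold, 53 lost the call, 5 gained one and 27 turned the direction. For msp-81 the log2 difference leaving out 1 library ranged from -6.86 to 1.49 at OP50 day 11, from -1.23 to 3.02 at day 15 and from -1.73 to 2.72 at day 17, each against day 1. It ranged from -2.73 to 6.89 for BRE against OP50 at day 6, from -4.28 to 7.54 at day 11, from -8.21 to 0.0542 at day 17 and from -2.1 to 1.36 averaged over days, and from -3.88 to 8.11 for BRE day 17 against day 6. With the replicate block msp-81 had -1.81 at OP50 day 11, -0.278 at day 17 and 0.115 averaged over days. Without the 4 libraries it had -6.79, -1.16 and -1.73 at OP50 days 11, 15 and 17, 0.0553 for BRE at day 17 and 1.64 averaged over days. msp-142 for BRE at day 6 ranged from 0 to 6.75 and msp-38 at day 11 from -1.18 to 5.03. msp-31 in OP50 day 17 against day 6 ranged from -0.431 to 1.81 and was -0.43 without the 4 libraries. A level of 3 counts came to between 0.0183 and 0.0291 CPM by library, so absence of a member in a library cannot be told from a level below that.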
